A study of Arabidopsis thaliana with 36 samples.

Results

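The Calvin cycle core and CP12 genes of Arabidopsis thaliana are 10 nuclear genes whose proteins work in, activate or hold back carbon fixation in the chloroplast. They were picked by locus code as RCA (AT2G39730), PRK (AT1G32060), GAPA1 (AT3G26650), GAPA2 (AT1G12900), GAPB (AT1G42970), SBPASE (AT3G55800), CFBP1 (AT3G54050, named HCEF1 in RefSeq), CP12-1 (AT2G47400), CP12-2 (AT3G62410) and CP12-3 (AT1G76560). All 10 were present among the 28774 gene codes of the count tables, and all 10 were among the 19457 genes with enough counts to be tested. The RNA came from rosette leaves 9 to 12 of soil-grown plants that were 5 weeks old and had been kept in days of 8 h light and 16 h dark. The genotypes were wild type (WT, labelled CS60000) and the mutants ivd1-2 and hml1-2, each mutant represented by 1 allele. IVD encodes isovaleryl-CoA dehydrogenase and HML1 hydroxymethylglutaryl-CoA lyase, both enzymes of leucine breakdown in mitochondria. Each genotype was sampled at 0 h, after 6, 24, 48 and 72 h of continuous darkness, and after 72 h in which the light cycle was kept, with 2 libraries for each of the 18 groups. The labels number these libraries as replicates but do not say that they came from separate plants, so p-values measure the spread between the libraries, which may be technical.

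The 36 libraries held 13638597 to 49398596 gene counts. Levels are given as CPM, counts relative to the size of the library after the TMM scaling of edgeR, and changes as log2 fold changes with their SE from edgeR's quasi-likelihood fit over all 19457 genes. A gene is said to have risen or fallen where its p, adjusted by Benjamini and Hochberg over all genes tested, was under 0.05. IVD mRNA was lower in ivd1-2 than in WT over the 6 conditions (log2 fold change -2.49, SE 0.14, edgeR adjusted p 2.48e-10), and HML1 mRNA was lower in hml1-2 (-0.76, SE 0.062, edgeR adjusted p 3.98e-07). The tissue label was checked with 6 mesophyll markers, whose summed level was 18670 to 35073 CPM at 0 h and 776 to 1689 CPM after 72 h of darkness, and all 6 fell. The 3 seed markers reached at most 0.0416 CPM in any library. The 3 root markers summed to 0.107 to 0.464 CPM at 0 h and to 12.5 to 60.6 CPM after 72 h of darkness, with CASP2 carrying that sum while CASP1 was at 0. The 3 flower markers went from 0.0776 to 0.464 CPM at 0 h to 2.39 to 14.8 CPM after 72 h of darkness. The summed guard cell, phloem and epidermis markers were 51.9 to 77.8, 317 to 411 and 262 to 450 CPM at 0 h and 11.1 to 38.8, 96.4 to 213 and 124 to 304 CPM after 72 h of darkness. The part of these marker shifts in the results was not tested. In whole leaves, fewer cells of a type and less RNA in each cell cannot be told apart. No light-cycle library was taken at 6 h, so darkness and the hour of the day cannot be told apart at that time or in the step from 6 to 24 h.

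The Calvin cycle fixes carbon dioxide with Rubisco, reduces the product to sugar phosphate and rebuilds the acceptor ribulose bisphosphate. RCA is Rubisco activase, which frees Rubisco from bound inhibitory sugars. GAPA1, GAPA2 and GAPB encode the subunits of the plastid glyceraldehyde-3-phosphate dehydrogenase (GAPDH), the reducing step. SBPASE (sedoheptulose bisphosphatase), CFBP1 (the plastid fructose bisphosphatase) and PRK (phosphoribulokinase) serve the rebuilding steps. Several of these enzymes are switched on in the light by thioredoxins. CP12 is a small disordered protein that, when oxidised in the dark, binds GAPDH and PRK into an inactive complex, and GAPB carries a C-terminal extension that resembles the end of CP12.

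The promoters of 4 of the genes are shown because these genes differ in their response to darkness, from GAPB, which had the lowest remaining share, through CFBP1 and CP12-2 to CP12-3. Each line gives the 250 bases before the annotated gene start, 5′ to 3′ on the plus strand, read from the TAIR10.1 genome of RefSeq. They lie at chr1:16127103-16127352 (GAPB), chr3:20016587-20016836 (CFBP1), chr3:23090694-23090943 (CP12-2) and chr1:28727956-28728205 (CP12-3). Capitals mark a G-box (CACGTG) or the core of an I-box (GATAAG or, on the other strand, CTTATC), elements known from light-responsive plant promoters.
GAPB: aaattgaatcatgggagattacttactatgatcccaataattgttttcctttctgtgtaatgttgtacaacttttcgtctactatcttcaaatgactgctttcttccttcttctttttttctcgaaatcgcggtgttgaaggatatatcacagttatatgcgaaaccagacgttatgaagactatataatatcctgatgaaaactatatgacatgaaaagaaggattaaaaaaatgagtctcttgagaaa
CFBP1: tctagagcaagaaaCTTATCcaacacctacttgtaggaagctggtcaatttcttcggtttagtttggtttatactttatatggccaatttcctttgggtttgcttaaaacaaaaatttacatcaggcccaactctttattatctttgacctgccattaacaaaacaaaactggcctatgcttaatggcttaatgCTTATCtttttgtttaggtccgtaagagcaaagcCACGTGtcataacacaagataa
CP12-2: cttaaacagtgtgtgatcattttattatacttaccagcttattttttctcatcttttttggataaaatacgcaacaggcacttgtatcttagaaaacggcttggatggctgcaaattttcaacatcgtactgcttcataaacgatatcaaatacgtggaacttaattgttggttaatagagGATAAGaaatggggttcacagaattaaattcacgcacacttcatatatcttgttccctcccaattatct
CP12-3: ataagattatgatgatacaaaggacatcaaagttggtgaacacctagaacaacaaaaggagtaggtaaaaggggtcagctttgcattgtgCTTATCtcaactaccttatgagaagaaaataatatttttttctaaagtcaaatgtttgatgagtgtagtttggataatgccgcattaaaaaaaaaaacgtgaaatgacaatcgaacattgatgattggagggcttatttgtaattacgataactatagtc

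GAPB held no capitalised motif in this window. The I-box core stood at -236 and -56 from the start of CFBP1 and at 1 place each in CP12-2, CP12-3 and RCA. That is 4 of 10 genes, against 12.3% of the 27443 protein-coding promoters of the same length. The G-box stood in CFBP1 and PRK, 2 of 10 genes against 6.49% of promoters. On both strands, TATCCA stood in 5 of 10 (RCA, PRK, CFBP1, CP12-2 and CP12-3) against 13.6%, the GT1 core GGTTAA in CP12-2 alone against 14.6%, and the evening element core AATATCT in SBPASE alone against 10% of promoters. The distal I-box core of CFBP1 and its TATCCA box share 4 bases; no other matches overlapped. CP12-2 and CP12-3 both held an I-box core and a TATCCA box while their transcripts went in opposite directions. These matches describe letters in a window and were not tested as binding sites or against the changes in darkness.

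In prolonged darkness 8 of the 10 genes fell, CP12-3 rose, and CP12-1 did not pass at 72 h. Over the 3 genotypes, 72 h of darkness against 72 h of the light cycle gave 8 of 10 genes lower and 1 higher, with a median log2 fold change of -3.70. Of all 19457 genes, 39.5% were lower and 38.8% were higher in the same comparison, with a median of -0.01, so a call in either direction was common. The same 8 were also lower and the same 1 higher within each genotype. The share of all genes called lower was 31.7% in WT, 32.1% in ivd1-2 and 32.5% in hml1-2, and the share called higher 31.9%, 31.7% and 31.4%. Together the 10 genes took 2.98 to 3.92% of all gene counts at 0 h, 3.34 to 3.86% after 72 h of the light cycle and 0.151 to 0.297% after 72 h of darkness.

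**Figure D1:**
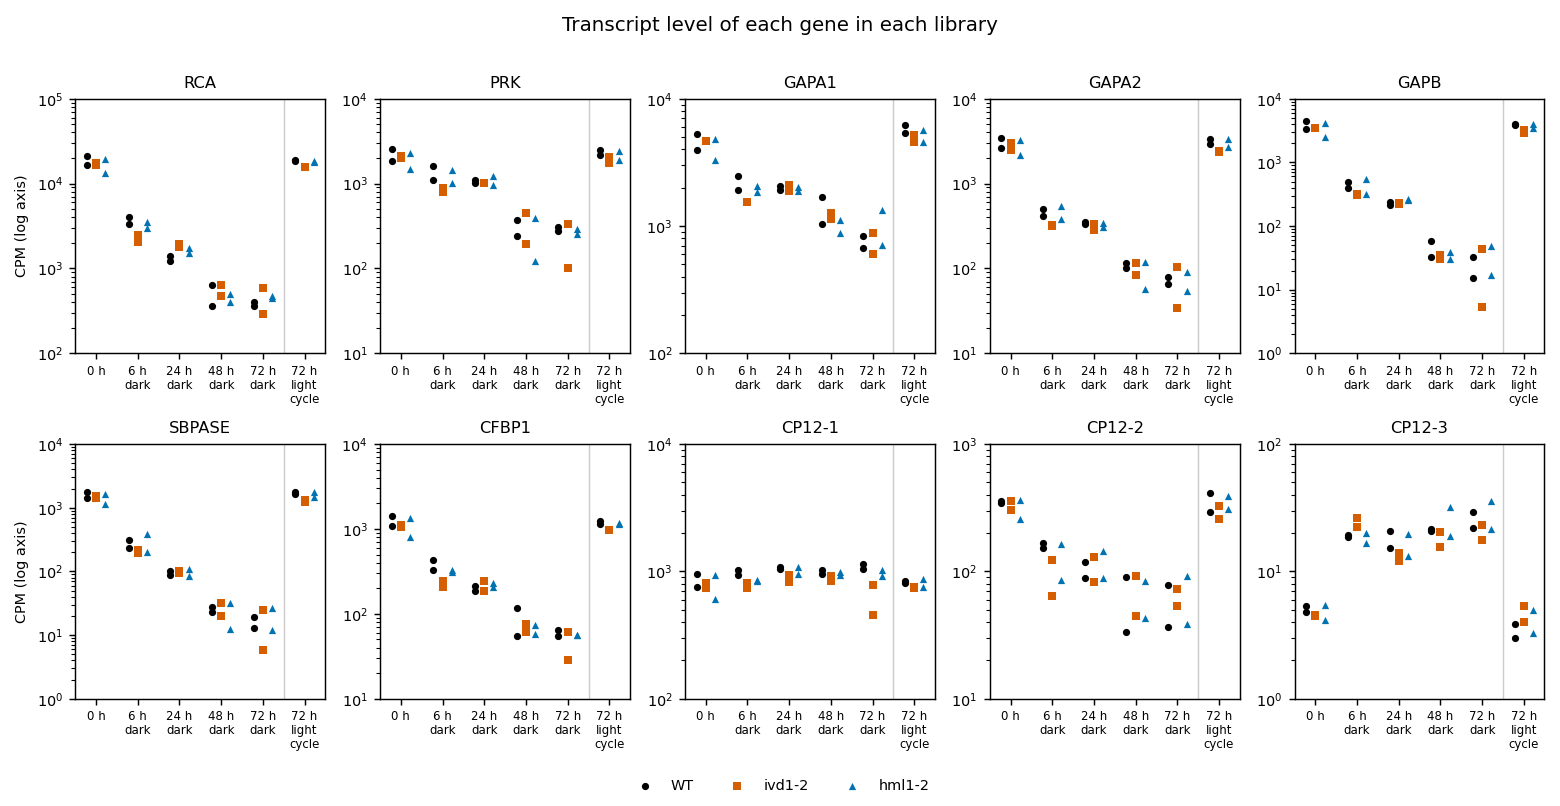
Level of each gene in each library, as CPM on a log axis (each panel has its own range), at 0 h, after 6 to 72 h of darkness and after 72 h of the light cycle; circles are WT, squares ivd1-2 and triangles hml1-2. GAPB lies between 2489 and 4489 CPM at 0 h and between 5.36 and 49.0 CPM after 72 h of darkness, whereas CP12-3 lies between 4.19 and 5.43 CPM at 0 h and between 17.6 and 35.8 CPM after 72 h of darkness.

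RCA was the most abundant of the 10 transcripts before darkness. Its lowest, median and highest level over the 6 libraries were 13165, 17102 and 21155 CPM at 0 h, 2024, 3187 and 4019 CPM at 6 h, 1231, 1632 and 1928 CPM at 24 h, 361.8, 485 and 645 CPM at 48 h, and 293, 424 and 596 CPM at 72 h of darkness. After 72 h of the light cycle they were 15790, 18147 and 18714 CPM. Every library in darkness was below every 0 h and light-cycle library at each time. RCA was 40.9-fold lower after 72 h of darkness than after 72 h of the light cycle (log2 fold change -5.35, SE 0.20, edgeR adjusted p 1.39e-15). Its first 6 h brought a 5.79-fold decrease (-2.53, SE 0.18), so 17.3% of the 0 h level was left at that time.

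The 3 plastid GAPDH genes all fell, but by very different amounts. GAPB had 2489, 3508 and 4489 CPM at 0 h, 312, 359 and 541 CPM at 6 h, 215, 233 and 263 CPM at 24 h, 30.1, 34.0 and 58.1 CPM at 48 h, and 5.36, 24.8 and 49.0 CPM at 72 h of darkness as lowest, median and highest. The light-cycle libraries held 2924, 3649 and 4053 CPM. The dark and light libraries did not overlap, and at 72 h of darkness ivd1-2 replicate 1 (5.36 CPM) stood far below the others. GAPB was 132-fold lower in darkness than in the light cycle at 72 h (log2 fold change -7.05, SE 0.43). It was 247-fold lower without ivd1-2 72 h replicate 2 (-7.95), a fit that keeps the low replicate 1 alone in its group. GAPA2 had 2178, 2819 and 3427 CPM at 0 h, 2362, 2795 and 3368 CPM after 72 h of the light cycle, and 34.7, 72.0 and 104 CPM after 72 h of darkness, 39.7-fold lower than in the light cycle (-5.31, SE 0.26). GAPA1 had 3320, 4652 and 5298 CPM at 0 h, 4531, 5280 and 6224 CPM after 72 h of the light cycle, and 605, 773 and 1335 CPM after 72 h of darkness, a 6.32-fold decrease (-2.66, SE 0.17). GAPA1 thus kept 15.8% of its light-cycle level, GAPA2 2.52% and GAPB 0.757% (0.405% without ivd1-2 72 h replicate 2).

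With these unequal decreases the shares of the 3 GAPDH genes shifted, while that of GAPA1 stayed the largest. Levels of different genes were compared per kb of exon. At 0 h, GAPA1 made up a median of 40.6% (range 39.3 to 43.8% over 6 libraries), GAPB 31.1% (29.3 to 32.1%) and GAPA2 28.6% (25.2 to 29.4%) of the 3 genes' summed CPM per kb. After 72 h of darkness the medians were 88.0% for GAPA1 (83.2 to 94.6%), 9.26% for GAPA2 (4.21 to 11.4%) and 2.74% for GAPB (0.782 to 5.41%), and after 72 h of the light cycle they were 44.4%, 26.9% and 28.6%. The summed level itself went from a median of 6256 CPM per kb at 0 h to 507 CPM per kb after 72 h of darkness. Within libraries, the ratio of GAPA1 to GAPB was 30.0-fold higher after 72 h of darkness than at 0 h (log2 difference 4.90 between 6 and 6 libraries, which did not overlap; two-sided exact permutation test within genotype, adjusted p 0.0121). The ratio of GAPA1 to GAPA2 was 7.66-fold higher and that of GAPA2 to GAPB 3.91-fold higher, with the same exact permutation result. An adjusted p of 0.0121 came from the smallest p that the exact arrangements allow, 0.00926. These were part of 60 ratio tests, 10 pairs in 6 comparisons, of which 48 passed after adjustment. Between 72 h of the light cycle and 0 h the ratios of GAPA1 to GAPA2 and of GAPA1 to GAPB also differed, by 0.23 on the log2 scale each (exact permutation test, adjusted p 0.0231), with overlapping libraries. The coding sequences of GAPA1 and GAPA2 are 85.8% identical, with a longest identical run of 29 bases, and the sources used here do not say how the authors' alignment divided reads between them.

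**Figure D2:**
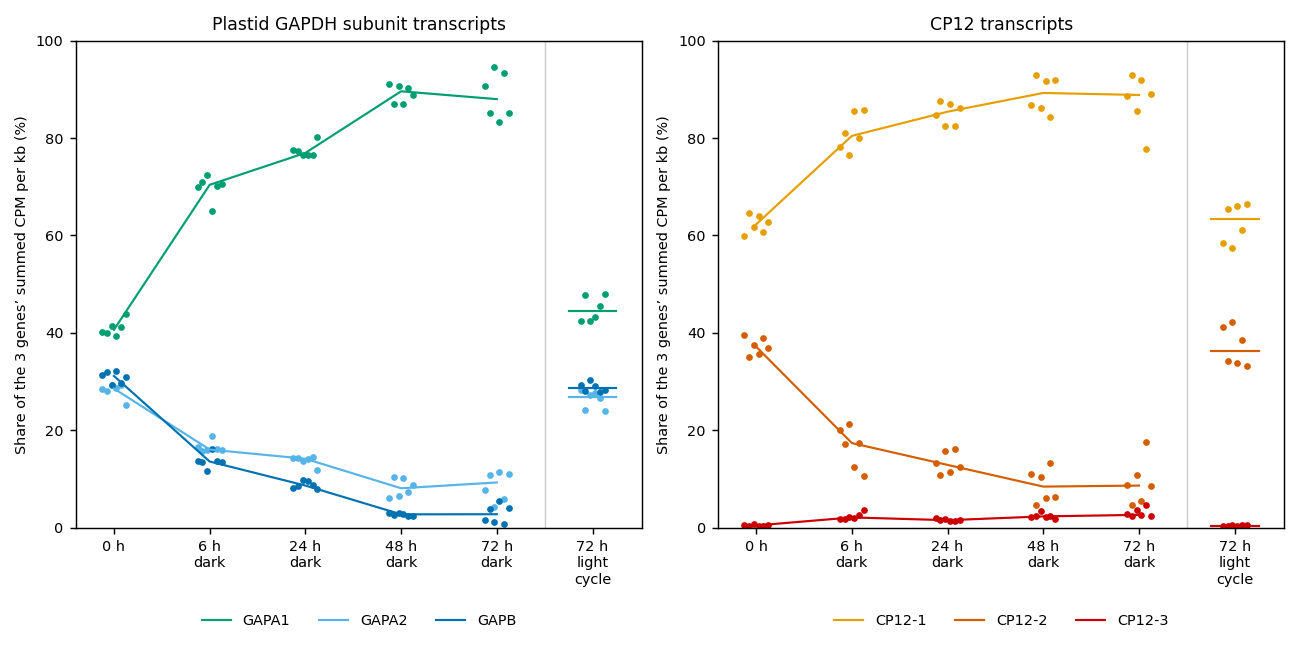
Share of each gene in the summed CPM per kb (%) of the 3 plastid GAPDH genes (left) and the 3 CP12 genes (right); points are the 6 libraries of each condition and lines join or mark their medians. GAPA1 goes from a median of 40.6% at 0 h to 88.0% after 72 h of darkness, and CP12-1 from 62.3% to 88.9%.

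The 2 bisphosphatases fell by different amounts. SBPASE had 1158, 1494 and 1753 CPM at 0 h, 192, 229 and 381 CPM at 6 h, 85.8, 97.9 and 108 CPM at 24 h, 12.3, 25.2 and 31.9 CPM at 48 h, and 5.73, 15.9 and 26.4 CPM at 72 h of darkness as lowest, median and highest, against 1220, 1560 and 1760 CPM after 72 h of the light cycle. It was 91.2-fold lower in darkness than in the light cycle at 72 h (log2 fold change -6.51, SE 0.35), and 141-fold lower without ivd1-2 72 h replicate 2 (-7.14). That fit keeps ivd1-2 replicate 1, the library with the lowest SBPASE level, alone in its group. CFBP1 had 811, 1107 and 1411 CPM at 0 h, 965, 1140 and 1231 CPM after 72 h of the light cycle, and 28.8, 56.4 and 65.1 CPM after 72 h of darkness, 20.7-fold lower than in the light cycle (-4.37, SE 0.20). In neither gene did the dark and light libraries overlap. The ratio of SBPASE to CFBP1 was lower after 72 h of darkness than at 0 h (log2 difference -2.20, two-sided exact permutation test, adjusted p 0.0121). The gene model of CFBP1 overlaps AT3G54060 on the opposite strand by 167 bases, and the sources used here do not give the strand setting of the authors' counting.

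PRK fell in part by 6 h and again between 24 and 48 h. Its lowest, median and highest level were 1472, 2054 and 2568 CPM at 0 h, 794, 1059 and 1632 CPM at 6 h, 970.5, 1005 and 1229 CPM at 24 h, 121, 308 and 456 CPM at 48 h, 101, 284 and 338 CPM at 72 h of darkness, and 1747, 2126 and 2457 CPM after 72 h of the light cycle. The 6 h libraries overlapped those of 0 h, while those of 48 and 72 h lay below all others. PRK was 1.83-fold lower at 6 h than at 0 h over the 3 genotypes (log2 fold change -0.87, SE 0.28, edgeR adjusted p 0.00958) and 8.17-fold lower in darkness than in the light cycle at 72 h (-3.03, SE 0.30). Within libraries, the ratio of RCA to PRK was lower after 72 h of darkness than at 0 h (log2 difference -2.32), and that of PRK to GAPB was 19.7-fold higher (4.30; two-sided exact permutation test, adjusted p 0.0121 for both).

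The 3 CP12 genes parted in darkness. CP12-1 had 609, 776 and 955 CPM at 0 h, 740, 848 and 1028 CPM at 6 h, 828, 1000.2 and 1088 CPM at 24 h, 848, 947 and 1024 CPM at 48 h, and 457, 978 and 1150 CPM at 72 h of darkness as lowest, median and highest, with 744, 785 and 873 CPM after 72 h of the light cycle. The dark libraries overlapped the 0 h libraries at every time. CP12-1 did not pass after 72 h of darkness against the light cycle (log2 fold change 0.13, SE 0.12, edgeR adjusted p 0.304), and this difference was -0.04 when CPM were scaled by library totals, so no direction is given for it. Over the 3 genotypes and with all libraries it passed only at 24 h against 0 h (0.30, SE 0.12, edgeR adjusted p 0.0279). That call was lost with DESeq2's size factors (adjusted p 0.0752), among genes of at least 5 CPM (0.315), in DESeq2's own test (0.0527) and with only the groups compared in the fit (0.0591). It was also lost, at log2 fold changes of 0.12 to 0.27, without any 1 of 9 libraries: WT 0 h replicate 1, hml1-2 0 h replicate 1, either ivd1-2 0 h library, either WT or hml1-2 24 h library, and ivd1-2 24 h replicate 1. Other calls of CP12-1 appeared when 1 library was left out. Without hml1-2 0 h replicate 2 it passed as higher over the genotypes at 6 h (log2 fold change 0.28, against 0.11 with all libraries), 48 h (0.43, against 0.24) and 72 h (0.31, against 0.13), and in hml1-2 alone at 24, 48 and 72 h (0.78, 0.72 and 0.72, against 0.39, 0.31 and 0.33). Without WT 0 h replicate 2 it passed at 48 h over the genotypes (0.37) and at 72 h in WT (0.61, against 0.36). Without ivd1-2 72 h replicate 1 it passed at 72 h over the genotypes against 0 h (0.28) and against the light cycle (0.25). In ivd1-2 alone it passed as lower at 72 h against 0 h without ivd1-2 72 h replicate 2 (-0.74), without ivd1-2 0 h replicate 2 (-0.54) and with library totals (-0.55), against -0.32 in the full fit. Against the light cycle it did so without ivd1-2 72 h replicate 2 (-0.72) and with library totals (-0.54), against -0.26 in the full fit.

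CP12-2 fell and CP12-3 rose. CP12-2 had 258, 352 and 367 CPM at 0 h, 64.2, 138 and 167 CPM at 6 h, 83.0, 105 and 144 CPM at 24 h, 33.6, 64.2 and 92.4 CPM at 48 h, and 36.4, 62.7 and 91.4 CPM at 72 h of darkness, against 258, 320 and 414 CPM after 72 h of the light cycle. Every dark library was below every 0 h and light-cycle library. CP12-2 was 5.38-fold lower in darkness than in the light cycle at 72 h (log2 fold change -2.43, SE 0.31, edgeR adjusted p 2.76e-07). CP12-3 was scarce at 0 h, with 4.19, 4.69 and 5.43 CPM, and held 16.9, 19.7 and 26.4 CPM at 6 h, 12.2, 14.6 and 20.8 CPM at 24 h, 15.4, 20.5 and 32.1 CPM at 48 h and 17.6, 22.6 and 35.8 CPM at 72 h of darkness. After 72 h of the light cycle it had 3.02, 3.91 and 5.31 CPM. Again no dark library overlapped a 0 h or light-cycle library, here from above. CP12-3 was 6.1-fold higher in darkness than in the light cycle at 72 h (2.61, SE 0.18, edgeR adjusted p 1.24e-11), and it had risen 4.25-fold by 6 h (2.09, SE 0.17, edgeR adjusted p 1.17e-09). Its lowest library held 62 counts of this gene.

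The summed CP12 level after 72 h of darkness overlapped that of 0 h and of the light cycle, while the levels of the GAPDH and PRK genes did not. The 3 CP12 genes together had a median of 1408 CPM per kb at 0 h (range 1079 to 1618), 1162 after 72 h of darkness (644 to 1420) and 1402 after 72 h of the light cycle (1226 to 1577), and the 3 ranges overlapped. CP12-1 made up a median of 62.3% of that sum at 0 h and 88.9% after 72 h of darkness, CP12-2 37.2% and 8.62%, and CP12-3 0.428% and 2.61%. Summed CP12 over PRK, per kb, was 1.36 at 0 h (1.17 to 1.39), 8.60 after 72 h of darkness (5.42 to 12.1) and 1.25 after 72 h of the light cycle (1.04 to 1.46). The dark range lay wholly above both others. In paired ratios at 72 h of darkness against 0 h, CP12-1 to CP12-2 was 6.16-fold higher, CP12-3 to CP12-1 4.61-fold higher and CP12-3 to CP12-2 28.4-fold higher (two-sided exact permutation test, adjusted p 0.0121 each). The ratio of PRK to CP12-2 did not pass at 72 h (log2 difference -0.54, exact permutation p 0.278) and was higher at 24 h than at 0 h (0.69, exact permutation test, adjusted p 0.0121), although the libraries overlapped.

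The order of the genes by CPM per kb changed accordingly. At 0 h the medians ran from RCA (8140 CPM per kb) through GAPA1 (2655), GAPB (1892), GAPA2 (1743), PRK (1087), SBPASE (855), CP12-1 (850), CFBP1 (670) and CP12-2 (552) to CP12-3 (6.08). The 6 libraries of neighbours in that order overlapped, except those of RCA with GAPA1 and of CP12-2 with CP12-3. After 72 h of darkness CP12-1 came first (1072 CPM per kb), followed by GAPA1 (441), RCA (202), PRK (150), CP12-2 (98.5), GAPA2 (44.5), CFBP1 (34.1), CP12-3 (29.4), GAPB (13.4) and SBPASE (9.11). There the neighbours GAPA1 and RCA did not overlap, and all other neighbours did.

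The decreases were spread unevenly over the 72 h. At 6 h against 0 h, 8 of the 10 genes had already fallen over the 3 genotypes, against 32.7% of all genes, and CP12-3 had risen, against 30% of all genes. At 24 h 8 had fallen, against 36.8%, and 2 had risen, against 33.8%, counting the CP12-1 call above. The counts were 8 and 1 at 48 h and again at 72 h against 0 h, beside 39.9% lower and 35.9% higher of all genes at 48 h and 40.5% lower and 37.7% higher at 72 h. The median log2 fold change of the 10 genes from 0 h was -1.67 after 6 h, -2.02 after 24 h, -3.38 after 48 h and -3.70 after 72 h, beside -0.07, -0.07, -0.09 and -0.06 for all genes.

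From 6 to 24 h only RCA (log2 fold change -0.92, SE 0.17), SBPASE (-1.39, SE 0.28) and CFBP1 (-0.52, SE 0.18, edgeR adjusted p 0.0234) fell further, 3 of 10 genes against 19.9% of all genes. The hour of the day changed in this step too and cannot be told apart from longer darkness. The CFBP1 call was lost without ivd1-2 24 h replicate 2 (-0.49, edgeR adjusted p 0.0529). PRK (-0.09, SE 0.27) and GAPA1 (0.07, SE 0.16) did not pass in this interval. Nor did GAPB (-0.73, SE 0.33) and CP12-3 (-0.38, SE 0.16), which passed without 1 of 2 libraries (hml1-2 6 h replicate 1 or WT 6 h replicate 1, -0.94 and -0.88) and without 1 of 5 libraries (the 24 h replicate 1 of any genotype, hml1-2 6 h replicate 2 or ivd1-2 6 h replicate 1, -0.45 to -0.57). CP12-3 also passed from 6 to 24 h with DESeq2's size factors, among genes of at least 5 CPM, in DESeq2's test and with only the groups compared (adjusted p 0.0223 to 0.0456). GAPB did so in the last 3 of these settings (adjusted p 0.000659 to 0.0421), and GAPA2 (-0.37, adjusted p 0.0116) with only the groups compared. With the replicate number as a block in the fit, CP12-3 passed too (-0.40, edgeR adjusted p 0.00544).

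From 24 to 48 h all 7 core genes fell, against 16.4% of all genes. GAPB changed by -2.67 (SE 0.35), SBPASE by -1.99 (SE 0.29), PRK by -1.83 (SE 0.28), GAPA2 by -1.71 (SE 0.22), RCA by -1.66 (SE 0.17), CFBP1 by -1.53 (SE 0.18) and GAPA1 by -0.75 (SE 0.16). CP12-2 (-0.75, SE 0.29, edgeR adjusted p 0.0643) and CP12-3 (0.44, SE 0.16, edgeR adjusted p 0.0540) did not pass. CP12-2 passed without the 48 h replicate 1 of any 1 genotype (-0.90 to -1.01), and CP12-3 without hml1-2 24 h replicate 1 or hml1-2 48 h replicate 2 (0.58 and 0.55). CP12-3 also passed from 24 to 48 h with DESeq2's size factors, without the low-count filter, among genes of at least 5 CPM and in DESeq2's test (adjusted p 0.0200 to 0.0482). With the replicate number as a block in the fit, CP12-2 (-0.81, edgeR adjusted p 0.00296) and CP12-3 (0.44, edgeR adjusted p 0.00478) both passed. From 48 to 72 h only GAPA1 passed (-0.51, SE 0.16, edgeR adjusted p 0.0430), 1 of 10 genes against 6.95% of all genes. That call was lost, at -0.38 to -0.49, without any 1 of 6 libraries: WT 48 h replicate 1, WT 72 h replicate 2, hml1-2 48 h or 72 h replicate 2, ivd1-2 48 h replicate 2 and ivd1-2 72 h replicate 1. Without ivd1-2 72 h replicate 2, GAPA2 (-0.77), GAPB (-1.17), SBPASE (-0.98) and CFBP1 (-0.63) passed as well, and without WT 48 h replicate 2 CFBP1 did (-0.63). With library totals GAPA2 and CFBP1 passed (both -0.59), and the GAPA1 call was lost without the low-count filter (adjusted p 0.0520) and with only the groups compared (0.222).

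Within single genotypes the step from 24 to 48 h gave 5 genes lower in WT against 2.14% of all genes, 5 in ivd1-2 against 4.54% and 6 in hml1-2 against 3.65%. In this fit RCA, GAPA2, GAPB, SBPASE and CFBP1 passed in each genotype and PRK in hml1-2 as well, while GAPA1 passed in none (log2 fold change -0.55 in WT, -0.73 in ivd1-2 and -0.96 in hml1-2). With only the groups compared in the fit, 0 genes passed in each genotype, and in WT the count was 3 with library totals and 2 without the low-count filter. The calls of PRK and GAPA1 depended on the setting, so no difference between genotypes is read from them. PRK, at -1.77 in WT, -1.63 in ivd1-2 and -2.09 in hml1-2, passed in WT and ivd1-2 among genes of at least 5 CPM and in DESeq2's test, in ivd1-2 with library totals and without ivd1-2 48 h replicate 2, and was lost in hml1-2 with only the groups compared or without any 1 of 3 libraries (either 24 h library or 48 h replicate 1). With the replicate number as a block, PRK passed in WT (edgeR adjusted p 0.00657) and ivd1-2 (0.00492), and GAPA1 (0.0310) and CP12-3 (0.0457) in hml1-2. GAPA1 passed in hml1-2 with library totals, among genes of at least 5 CPM and in DESeq2's test (adjusted p 0.00961 to 0.0397), and in ivd1-2 with library totals (0.0474). In WT this count was 0 without 24 h replicate 1 or 48 h replicate 2, 1 without 24 h replicate 2 and 2 without 48 h replicate 1. In ivd1-2 it was 3 without either 24 h library and 2 without 48 h replicate 1, and in hml1-2 it was 2 without 48 h replicate 1. From 6 to 24 h RCA, SBPASE and CFBP1 fell in WT, 3 genes against 8.2% of all genes, RCA and SBPASE in hml1-2, 2 genes against 8.19%, and CP12-3 in ivd1-2, 1 gene against 6.22%. Without either 24 h library or 6 h replicate 2 the count was 1 in WT and 0 in ivd1-2, and in hml1-2 it was 0 without either 24 h library and 1 without either 6 h library. With only the groups compared it was 6 in WT and 3 in ivd1-2, and CFBP1 was lost in WT with library totals (adjusted p 0.0540). From 48 to 72 h none passed in any single genotype, against 0.072% of all genes in WT, 8.16% in ivd1-2 and 0.385% in hml1-2. DESeq2 called 0 there in each, with an unadjusted p under 0.05 for 1 gene in WT, 2 in ivd1-2 and 0 in hml1-2. Without ivd1-2 72 h replicate 2, 6 genes passed in ivd1-2, and with library totals 1 did (CP12-1).

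**Figure D3:**
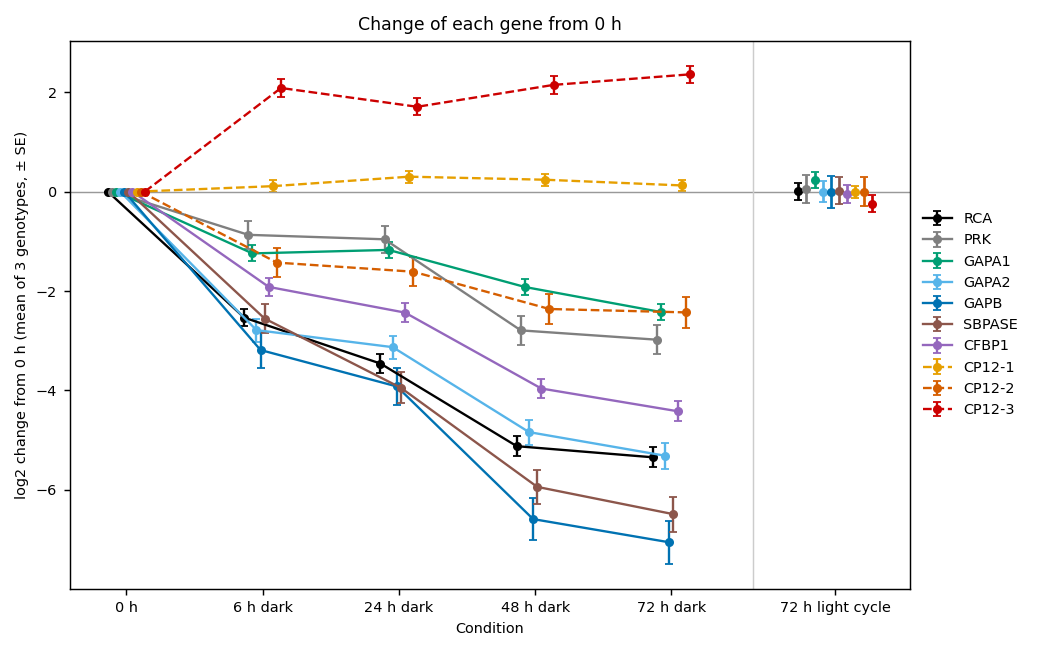
Change from 0 h of each gene, as the log2 fold change averaged over the 3 genotypes with its SE (error bars), through 72 h of darkness and, at the right, after 72 h of the light cycle. GAPB reaches -7.05 and CP12-3 reaches 2.36 after 72 h of darkness, while in the light cycle all 10 genes lie between -0.25 and 0.24.

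In the plants kept in the light cycle for the same 72 h, none of the 10 genes passed against 0 h. The log2 fold changes ran from -0.25 (CP12-3) to 0.24 (GAPA1), the smallest edgeR adjusted p was 0.744, the unadjusted p was under 0.05 for 0 of 10 genes, and DESeq2 called 0. Of all genes 0.0617% passed. The 0 h and light-cycle groups share no library with each other, but each serves as the reference of a darkness comparison, so the changes at 72 h against 0 h and against the light cycle share the dark libraries and are not independent.

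The genotypes were also read one by one. In WT 6 of 10 genes fell and 1 rose at 6 h, against 19.2% lower and 21% higher of all genes. In ivd1-2 8 fell and 1 rose (20.6% and 18.9%), and in hml1-2 7 fell and 1 rose (19.8% and 20.9%). In WT, PRK (log2 fold change -0.70, edgeR adjusted p 0.257) and CP12-2 (-1.14, edgeR adjusted p 0.0801) did not pass at 6 h. CP12-2 did pass there in DESeq2's test (adjusted p 0.0466), with only the groups compared (0.00670) and with the replicate number as a block (0.00681). Whether the genotypes differ at 6 h was tested by the difference below and is not read from these counts. For the response at 6 h those tests called 0.00514% of all genes in ivd1-2 and 0% in hml1-2. With 2 libraries a group, a gene that does not pass there is not shown to respond alike. Some of the calls at 6 h were lost when 1 library was left out. GAPA1 at 6 h was lost in WT without WT 0 h replicate 2 (-0.80, edgeR adjusted p 0.0610) and in hml1-2 without hml1-2 0 h replicate 2 (-0.72, edgeR adjusted p 0.0825). CP12-2 at 6 h was lost in hml1-2 without that library (edgeR adjusted p 0.225) or without hml1-2 6 h replicate 2 (edgeR adjusted p 0.294), and in ivd1-2 without ivd1-2 0 h replicate 1 (-1.69) or ivd1-2 6 h replicate 2 (-1.34). PRK at 6 h in ivd1-2 was lost without any 1 of the 4 libraries compared (-1.13 to -1.32). Other settings ended calls at 6 h too. With only the groups compared GAPA1 was lost in WT (adjusted p 0.0513) and in hml1-2 (0.120) and CP12-2 in hml1-2 (0.0688), and without the low-count filter PRK was lost in ivd1-2 (0.0592).

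At 24 h against 0 h 7 genes fell and 1 rose in each genotype, against 25.7% lower and 26% higher of all genes in WT, 23.3% and 24.5% in ivd1-2, and 25.9% and 25.1% in hml1-2. PRK did not pass at 24 h in any single genotype in the full edgeR fit (log2 fold change -1.08 in WT, -1.03 in ivd1-2 and -0.77 in hml1-2). It did pass in WT and in ivd1-2 with library totals, among genes of at least 5 CPM, in DESeq2's test and with only the groups compared, and in WT also with DESeq2's size factors (adjusted p 0.00283 to 0.0463), while in hml1-2 it passed in none of these. With the replicate number as a block PRK passed in WT and in ivd1-2 too (edgeR adjusted p 0.0163 and 0.0196). CP12-2 at 24 h was lost in each genotype without its 24 h replicate 2 (log2 fold change -1.70 in WT, -1.35 in ivd1-2 and -1.25 in hml1-2), and in hml1-2 also without hml1-2 0 h replicate 2 (-1.11), without which GAPA1 was lost too (-0.73). GAPA1 at 24 h in hml1-2 was also lost with only the groups compared (adjusted p 0.0752). At 48 and 72 h against 0 h the count was 8 lower and 1 higher in every genotype. Of all genes, 29.5% were lower and 27.9% higher at 48 h in WT, 30.6% and 27.7% in ivd1-2, and 30.5% and 28.7% in hml1-2. At 72 h these shares were 32.2% and 30.3% in WT, 32.7% and 31.7% in ivd1-2, and 33.6% and 30.9% in hml1-2.

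Between hml1-2 and WT no difference passed at any of the 10 genes. None passed in any of the 6 conditions or in their mean (edgeR and DESeq2 0 of 10, unadjusted p under 0.05 in 0 of 10), and none passed in the tests of whether the response to darkness differs. Of all genes 0.00514% were called in either direction at 0, 6, 48 and 72 h of darkness, 0.0103% at 24 h and in the light cycle, and 0.0257% in the mean of the 6 conditions. In the tests of the response to darkness the share was 0% at 6 h and 0.00514% in the others.

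Between ivd1-2 and WT 1 of the 10 genes, CP12-1, passed at 72 h of darkness, a share close to that of all genes. After 72 h of darkness it had 457 and 787 CPM in ivd1-2, 1150 and 1039 CPM in WT, and 1032 and 924 CPM in hml1-2. Both ivd1-2 libraries were below all 4 others. CP12-1 was lower in ivd1-2 than in WT (log2 fold change -0.82, SE 0.21, edgeR adjusted p 0.00811), 1 of 10 genes against 10.7% of all genes. The call was lost without ivd1-2 72 h replicate 1 (-0.48, edgeR adjusted p 0.219), without WT 72 h replicate 1 (-0.66, edgeR adjusted p 0.0556) and with only the groups compared in the fit (-0.74, edgeR adjusted p 0.425). In the mean of the 6 conditions CP12-1 was lower in ivd1-2 (-0.31, SE 0.084, edgeR adjusted p 0.0160), 1 of 10 genes against 8.58% of all genes. That mean includes the same 72 h dark libraries, so it is not an independent result. CP12-1 did not pass in any other single condition. Without ivd1-2 72 h replicate 2, GAPA2 (-0.35), GAPB (-0.56) and CFBP1 (-0.38) passed in that mean as well, and CFBP1 also did so without WT 48 h replicate 2 (-0.38). The other 9 genes did not pass at 72 h, at log2 fold changes of -0.41 to 0.22.

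The ivd1-2 libraries of 72 h stood far apart from each other. GAPB was at 5.36 CPM in replicate 1 and 43.8 CPM in replicate 2, SBPASE at 5.73 and 24.5 CPM, and PRK at 101 and 338 CPM. Over all genes the correlation of these 2 libraries was 0.884, against 0.931 to 0.989 in the other groups. Without replicate 2, PRK (log2 fold change -1.32), GAPB (-1.93) and SBPASE (-1.25) also passed as lower in ivd1-2 than in WT at 72 h. Whether the response to 72 h of darkness differed between ivd1-2 and WT was tested by the interaction, and no gene of the 10 passed, against 4.57% of all genes with 0 h as the reference and 4.53% with the light cycle. None passed in the same test at 6, 24 or 48 h against 0 h, against 0.00514, 0.0206 and 0.303% of all genes (DESeq2 0 of 10, unadjusted p under 0.05 in 0 of 10). CP12-1 came nearest, at -0.68 (edgeR adjusted p 0.173) and -0.67 (edgeR adjusted p 0.190), and was the 1 gene with an unadjusted p under 0.05 in either test; DESeq2 called none. Without ivd1-2 72 h replicate 2, CP12-1 passed in both tests (-0.92 and -0.88) and GAPB in the first (-1.80).

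**Figure D4:**
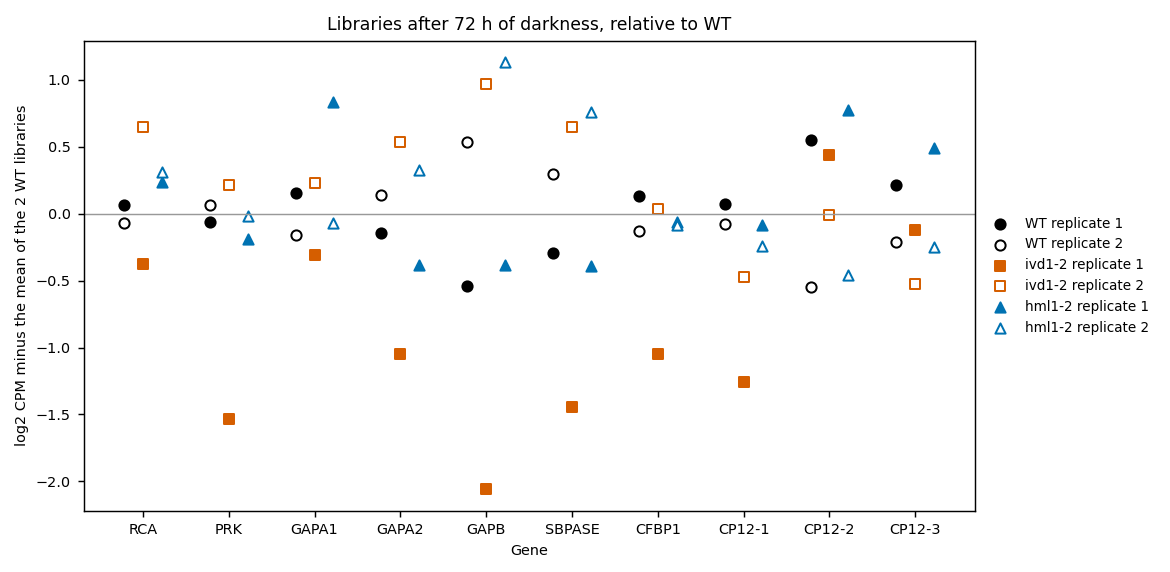
Level of each gene in each library of 72 h of darkness, as log2 CPM minus the mean of the 2 WT libraries (vertical axis); circles are WT, squares ivd1-2 and triangles hml1-2, filled for replicate 1 and open for replicate 2. CP12-1 in ivd1-2 lies at -1.26 and -0.47, and for GAPB the ivd1-2 libraries lie at -2.06 and 0.97.

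At 6 h of darkness the ivd1-2 and WT libraries did not overlap at any of the 10 genes, 9 being lower in ivd1-2 and CP12-3 higher, while 49.3% of all genes did not overlap and 29.5% were lower without overlap. None passed the test, against 0.0154% of all genes (smallest edgeR adjusted p 0.526; DESeq2 called none; 2 of 10 had an unadjusted p under 0.05). RCA, for example, had 2448 and 2024 CPM in ivd1-2 and 3377 and 4019 CPM in WT (log2 fold change -0.73, SE 0.29). After 72 h of the light cycle 9 of the 10 genes did not overlap between these genotypes, beside 46.7% of all genes and 24.2% lower. At 0, 24, 48 and 72 h of darkness the genes that did not overlap were 1, 3, 2 and 1 of 10, beside 15.9, 47.8, 42.4 and 44.8% of all genes. In the light cycle the 7 core genes and CP12-1 were lower and CP12-3 higher in ivd1-2, at log2 fold changes of -0.42 to 0.44, and none passed (edgeR and DESeq2 0 of 10, unadjusted p under 0.05 in 0 of 10, against 0.0154% of all genes). RCA, for example, had 15812 and 15790 CPM in ivd1-2 and 18714 and 18464 CPM in WT. None passed between ivd1-2 and WT at 0, 24 or 48 h either (DESeq2 0 of 10, unadjusted p under 0.05 in 0 of 10), against 0.0103, 0.488 and 3.71% of all genes.

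Across the 18 group means of log2 CPM, the 7 core genes and CP12-2 followed one another closely, with Pearson correlations of 0.93 to 1.00 between them. CP12-3 ran against them, at -0.80 to -0.94, and CP12-1 was loosely related to them, at -0.19 to -0.40. These values describe 18 points that share 6 conditions and carry no test. The genes whose 18 group means were most like those of RCA were FBA2 (plastid aldolase, 0.998), CHLI2 (a magnesium chelatase subunit) and FAD7 (a plastid fatty acid desaturase). The nearest gene to GAPB was CFBP1 (0.998), the nearest to GAPA1 was GDCH (the H protein of glycine decarboxylase, 0.994), and the nearest to CP12-2 was GUN5 (the magnesium chelatase H subunit, 0.991). For SBPASE it was AT1G29700 (0.999), for GAPA2 AT1G65230 (0.998) and for PRK AT4G28080 (0.992). CP12-3 was most like ERD7 (0.991), SNRK2.3 (0.991), a kinase of abscisate signalling, and AT1G11210 (0.990). CP12-1 had less close neighbours, namely AT1G33290 (0.951), AT5G55210 (0.941) and MSI2 (0.932).

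Other genes around the cycle were read in the same fit, in 72 h of darkness against 72 h of the light cycle over the 3 genotypes, where 39.5% of all genes were lower and 38.8% higher. Of 16 other Calvin cycle genes 12 fell and 1 rose, with a median log2 fold change of -3.33. PGK1 (phosphoglycerate kinase, -3.32), TKL1 (transketolase, -2.65), RPE (ribulose phosphate epimerase, -2.27) and RPI3 (ribose phosphate isomerase, -3.84) were among those that fell. The second transketolase gene TKL2 rose in the mean of the 3 genotypes (0.75). CFBP2 (0.18), FBA3 (0.10) and the plastid-encoded Rubisco large subunit RBCL (-0.19, named after its value was seen) did not pass. The second plastid fructose bisphosphatase gene, CFBP2, thus stood apart from CFBP1, which was at -4.37. The 4 Rubisco small subunit genes, also described after their values were seen, fell, from RBCS2B (-4.49) and RBCS1A (-5.61) to RBCS3B (-6.79) and RBCS1B (-7.29), and their near-identical copies make the split among them uncertain.

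Of 10 genes listed for thioredoxins and their reductases, 9 fell and 1 rose, with a median of -1.52. The f-type thioredoxins TRXF1 (log2 fold change -5.52) and TRXF2 (-4.24), known activators of the bisphosphatases, fell most, and NTRC (-2.40) and the ferredoxin-thioredoxin reductase subunit FTRB (-2.36) fell less. TRXM3 rose (0.51). Of 11 genes listed for Rubisco assembly and upkeep 10 fell and none rose, with a median of -2.09. Among them were the phosphatase CBBY (-6.16), which is not an assembly factor, the chaperonin subunit CPN60B1 (-3.29) and the assembly factor RAF2 (-2.05). Of 10 counterparts of cycle enzymes outside the cycle, 3 fell and 3 rose, with a median of -0.09. The cytosolic aldolase FBA6 (1.88), the plastid glycolytic GAPDH gene GAPCP1 (0.86) and the cytosolic fructose bisphosphatase CYFBP (0.83) rose in the mean of the 3 genotypes. The cytosolic GAPDH gene GAPC1 (-1.74), the cytosolic triose phosphate isomerase CTIMC (-1.50) and PGK3 (-0.78) fell.

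**Figure D5:**
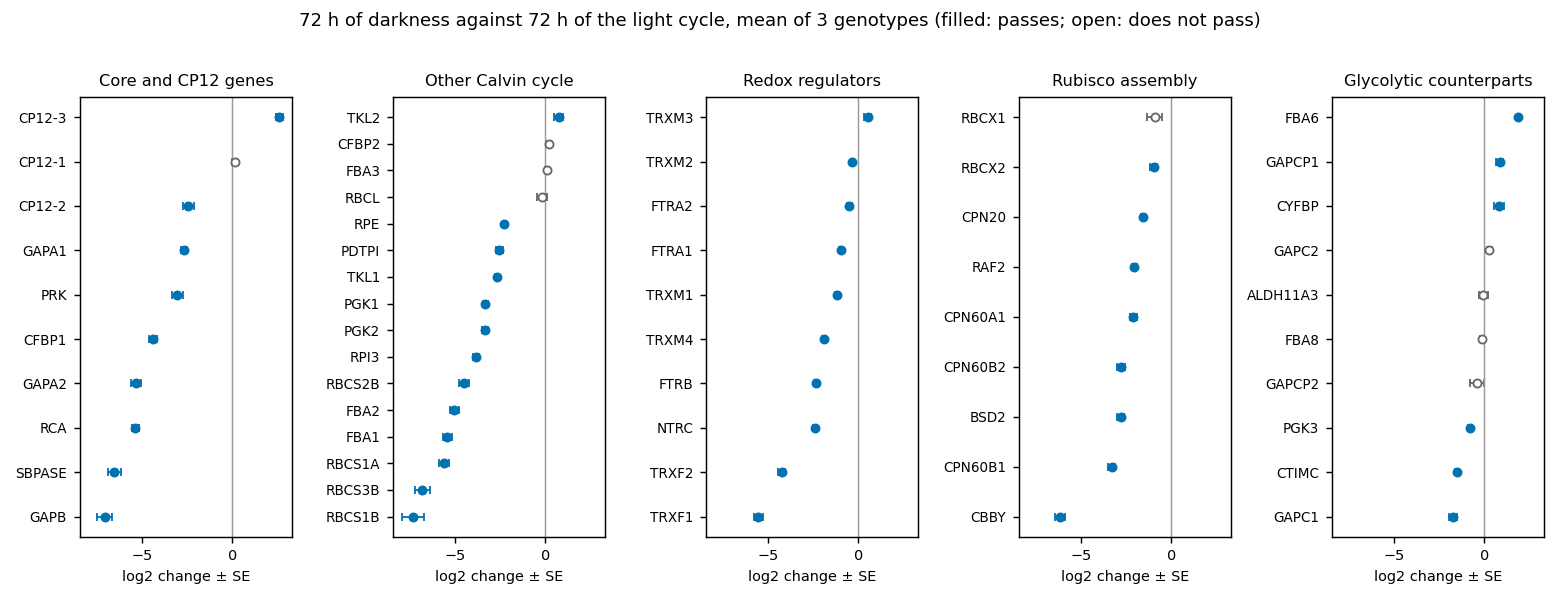
Log2 fold change with its SE (error bars) of each gene in 72 h of darkness against 72 h of the light cycle over the 3 genotypes, for the 10 core and CP12 genes and 4 lists of related genes (9 of the 11 genes of the Rubisco list are drawn). Filled points pass the test and open points do not. The medians over the full lists are -3.70, -3.33, -1.52, -2.09 and -0.09 from left to right. The Rubisco assembly panel includes the phosphatase CBBY, which is not an assembly factor. The panel of glycolytic counterparts includes the cytosolic fructose bisphosphatase CYFBP, which is not an enzyme of glycolysis.

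Between ivd1-2 and WT at 72 h of darkness 9 of the 47 related genes passed, against 23.3% of all genes called in either direction, so the count says nothing particular of these lists, and 8 of them are named here. FBA3 (log2 fold change -0.98), FTRB (-0.84) and CFBP2 (-0.57) were lower in ivd1-2. GAPCP2 (3.72), CPN60B2 (1.76), CYFBP (1.45), TKL2 (1.24) and PGK3 (0.69) were higher. CPN60B2 (1.54) also passed at 48 h, where the triose phosphate isomerase gene CTIMC was higher as well (0.71). In the mean of the 6 conditions 10 of the 47 genes passed, against 16.5% of all genes, among them TKL1 (-0.23) and RPE (-0.18), both lower in ivd1-2. The changes in darkness given above for FBA3, FTRB, CFBP2, CYFBP, TKL2 and PGK3 are means that include ivd1-2. They do not give the change in each genotype. The ivd1-2 libraries of 72 h correlated at only 0.884. The calls of these related genes were not followed under other settings or with 1 library left out.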

How the data were processed

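Leaf mRNA was read by RNA sequencing in 36 libraries made with a stranded Illumina kit, per the labels' protocols. The deposited files hold raw counts per gene, one table per library, and the submitters' processing notes list the build TAIR10 with HTSeq, TopHat 1.4.1, Cuffdiff 2.1.1, SAMtools 0.1.19 and Trimmomatic 0.30. The sources used here do not give the strand setting of the counting. Rows that name no gene were left out of library sizes and tests; unassigned reads took 0.58 to 1.47% and ambiguous reads 1.70 to 2.36% of each library.

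Genes were filtered with filterByExpr (minimum count 10, minimum total 15), which removed codes holding 0.0119% of the counts. The remaining 19457 genes were fitted with edgeR 4.0.16 (TMM scaling, quasi-likelihood test, 1 coefficient for each of the 18 groups, 18 residual degrees of freedom, R 4.3.3, limma 3.58.1), and p-values were adjusted by Benjamini and Hochberg over all genes tested in each comparison. Ratios between genes were taken as log2 CPM differences (prior count 2) within a library and tested by exact permutation within genotype. Levels per kb used the exon union of the TAIR10.1 annotation, and promoters were read from its genome with Biopython 1.88. The scripts were tested on simulated data. A few items of the lists and promoters are not reported here. The 10 genes, the lists and the tests were chosen with earlier results of these data known. Beyond the 10 genes, the text names of each list up to 4 genes with the smallest p in 72 h of darkness against the light cycle, genes that passed against the list's direction and genes that passed between a mutant and WT at 72 h of darkness or in the mean of conditions, and for each of the 10 genes up to 3 genes with the highest correlation over the 18 group means. Alternatives were DESeq2 1.42.0 size factors and test, library totals, no low-count filter, a filter of at least 5 CPM on average, a fit of only the groups compared, the replicate number as a block, a prior count of 0.5 for ratios, and leaving out each library. Of the genes named, only the 10 genes and their ratios were followed through these alternatives.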

Additional observations from a re-analysis of the deposited data

How the results depend on the processing

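Counts of genes passing after 6, 24, 48 and 72 h against 0 h, after 72 h of darkness against the light cycle, and between hml1-2 and WT stayed within 1.5 times under every alternative run. The counts that moved concern steps between neighbouring times and ivd1-2; the cause was not tested beyond what fewer samples in a fit imply. With only the groups compared in the fit, the step from 6 to 24 h went from 3 to 6 genes in WT, from 1 to 3 in ivd1-2 and from 3 to 6 over the genotypes. In the same fit, 0 genes passed from 24 to 48 h in WT and ivd1-2 (5 each in the full fit) and in hml1-2 (6), 0 from 48 to 72 h over the genotypes (1) and 0 between ivd1-2 and WT at 72 h (1). The mean step from 6 to 24 h gave 5 genes with the filter of at least 5 CPM and with DESeq2's test. Library totals gave 3 genes for WT from 24 to 48 h, 1 for ivd1-2 from 48 to 72 h (0) and 3 for the mean from 48 to 72 h, and without the low-count filter these were 2 for WT and 0 for the mean. Library totals shifted the median of all genes by -0.185 (72 h against 0 h), -0.177 (72 h of darkness against the light cycle) and -0.116 (48 to 72 h), and CP12-1 then reversed to -0.045 in both; with at least 5 CPM it reversed to -0.000463 in the mean at 72 h against the light cycle and to -0.071 in ivd1-2 at 6 h.

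Leaving out 1 library at a time gave 1 to 3 genes in WT, 0 to 1 in ivd1-2 and 0 to 1 in hml1-2 from 6 to 24 h, 0 to 2 in WT, 2 to 6 in ivd1-2 and 2 to 6 in hml1-2 from 24 to 48 h, and 0 to 6 in ivd1-2 and 0 to 5 over the genotypes from 48 to 72 h. Between ivd1-2 and WT it gave 0 to 4 genes at 72 h of darkness, 1 to 4 in the mean, and 0 to 2 and 0 to 1 in the tests of the difference at 72 h against 0 h and against the light cycle. CP12-1 then ranged in ivd1-2 from -0.094 to 0.15 at 6 h, -0.060 to 0.30 at 24 h, -0.080 to 0.084 at 48 h, -0.74 to 0.076 at 72 h and -0.72 to 0.10 against the light cycle, in hml1-2 from -0.17 to 0.52 at 6 h and -0.067 to 0.14 against the light cycle, and in the mean from -0.14 to 0.31 at 72 h and -0.18 to 0.25 against the light cycle. Ratios that changed sign were CP12-1 to CP12-2 (-0.078 to 0.10), GAPA2 to GAPB (-0.045 to 0.047), RCA to PRK (-0.091 to 0.0080) and PRK to CP12-2 (-0.045 to 0.18) in the light cycle and PRK to CP12-2 at 48 h (-0.89 to 0.0026); the ratio tests passing ranged from 47 to 49 of 60. A lone library was assumed to vary like the other groups. The filter and the scaling were run again in each fit with 1 library left out and in each fit of only the groups compared. Why a call was lost or gained in them was not tested.

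The replicate numbers are shared by all groups but the labels do not say that they mark a shared plant, batch or day. Deviations of equally numbered libraries correlated at -0.333 to 0.849 over 153 pairs of groups (median 0.274, 120 over 0.1 and 14 under -0.1). Most pairs of groups thus deviated alike by number, though not all did. What the numbers share is not given, and the main fit did not take them as pairs. With the number as a replicate block, 2 genes passed from 6 to 24 h in ivd1-2 (1), 8 at 6 h (7) and 9 at 24 h (8) in WT, 9 at 24 h in ivd1-2 (8), 6 from 24 to 48 h in WT and in ivd1-2 (5 each), 8 in hml1-2 (6) and 9 over the genotypes (7), and 4 from 6 to 24 h over the genotypes (3). The calls gained under the block included CP12-2 (-0.81, edgeR adjusted p 0.00296) and CP12-3 (0.44, edgeR adjusted p 0.00478) from 24 to 48 h and CP12-3 from 6 to 24 h (-0.40, edgeR adjusted p 0.00544) over the genotypes, CP12-2 at 6 h in WT (-1.16, edgeR adjusted p 0.00681), PRK at 24 h against 0 h and from 24 to 48 h in WT and ivd1-2, and GAPA1 and CP12-3 from 24 to 48 h in hml1-2. With 2 libraries a group, 18 residual degrees of freedom and 159 counts of GAPB in the lowest library, folds of scarce dark transcripts are less precise than those of abundant ones.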

Other observations

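The libraries numbered 1 and 2 of a group differed in the same direction across many groups, at most of the 10 genes. The library numbered 2 had the higher CPM of PRK in 17 of 18 groups, of GAPA1 and SBPASE in 14 each and of GAPA2 and GAPB in 13 each. The library numbered 1 had the higher CPM of CP12-2 in 16 of 18 groups, of CP12-3 in 15 and of RCA, CFBP1 and CP12-1 in 12 each. The fold between the 2 libraries of a group reached 1.68 for CP12-3 and 8.18 for GAPB. This was noticed in the data, no test was run, and the labels do not say what the numbers share.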
